A study of Mus musculus with 23 samples.

Results

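Oil palm phenolics (OPP) are a water-soluble extract of the oil palm fruit that is rich in phenolic acids. The question examined here was which genes that are expressed in liver, spleen and heart alike responded to OPP in the liver and not, or in the opposite direction, in the other organs. The values came from 23 Illumina MouseRef-8 Version 1 arrays, each of which held the RNA of 1 organ of male inbred BALB/c mice aged 12 weeks. Control mice drank distilled water, and treated mice drank OPP at 1500 ppm gallic acid equivalent (GAE), for 6 weeks on the same normal diet, and all were fasted overnight before the organs were taken. The livers came from 4 control and 3 treated mice, and spleens and hearts from 4 mice of each group. Of the 24048 probes on the array, 5088 were detected in all 3 organs and entered the test, which asked for detection at p under 0.01 on 3 or more arrays of 1 treatment group in every organ. Of these probes, 4381 carried a gene symbol and stood for 3943 genes, and 707 were unnamed in the annotation used. For each probe the difference between OPP and control (the response) was estimated on the log2 scale in each organ, and the mean response of spleen and heart was subtracted from that of the liver. This difference is called the interaction below, and a negative value means that the gene was lower with OPP in the liver relative to its response elsewhere.

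The liver is the main site of cholesterol, bile acid and plasma protein synthesis, and it takes up amino acids from the portal blood through transporters of the solute carrier families. The heart is built mainly of contractile muscle cells and the spleen of lymphocytes and red pulp, but all these organs share the same basic machinery for RNA processing, protein folding, membrane traffic and sterol synthesis. Genes of this shared machinery can be followed with the same probe in each organ, which is the ground of the comparison.

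The labelled organs were borne out by their markers. Of 12 hepatocyte genes on the array, 11 were detected in the control livers and 10 in the OPP livers, and of 10 cardiomyocyte genes none was detected on 3 arrays of either liver group. All 7 genes of the exocrine pancreas on the array were detected in both spleen groups, with a summed log2 intensity of 16.03 to 17.77 against 9.88 to 10.77 in the livers, and their part in the spleen responses was not tested. Of 14 neutrophil genes on the array, 5 were detected on at least 3 control livers and 1 on all OPP livers, and their summed level stood at 16.15 and 15.33 (log2) in control livers 3 and 4 (arrays are numbered by replicate), at 11.56 and 10.66 in control livers 1 and 2, and between 10.36 and 14.48 in the OPP livers. In OPP liver 3 the background intensity was 351.5, against 151.1 to 174.2 on the other liver arrays, and 5335 probes were detected, against 6373 to 7645. The groups were housed in separate cages, outlying arrays had been removed by the authors, and each organ was measured as bulk tissue, so that fewer cells of a type and less RNA per cell cannot be told apart.

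In the comparison of the liver with the mean of spleen and heart, 49 of the 5088 probes tested (0.963%) passed an adjusted p of 0.05 (termed called below) in limma, a linear model whose variances are moderated across probes, 9 of them higher (0.177%) and 40 lower (0.786%) in the liver relative to the other organs. At an unadjusted p under 0.01 there were 335 probes (6.58%), of which 89 were higher (1.75%) and 246 lower (4.83%), and at an unadjusted p under 0.05 there were 904 (17.8%). The liver response itself reached an unadjusted p under 0.01 for 540 of these probes (10.6%), whereas the spleen response did so for 55 (1.08%) and the heart response for 45 (0.884%). These counts rested on the assumption of 1 spread per probe in all organs. The median standard deviation between arrays of a group was in fact 0.222 in liver, 0.160 in spleen and 0.124 in heart on the log2 scale. Pooling them understates the error of the liver response and overstates that of the heart response, so that the heart count may be too low. When each organ was given its own weight in limma, 1 probe of the 49 passed, that of Slc38a2, and 155 probes reached an unadjusted p under 0.01. The adjusted p of the other genes below should be read with this in mind. The predominance of lower over higher probes also depended on the scaling, since 26.6% of the probes at an unadjusted p under 0.01 were higher as reported, 45.5% after median scaling, 50.2% with the authors' normalised values, 51.5% without the filter on dim probes, 14% without OPP liver 2 and 37.9% without OPP liver 3.

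The 335 probes were sorted by what they did in each organ. A response was described as confined to the liver where the liver response had an unadjusted p under 0.01 while those of spleen and heart lay within 0.26 of 0 (1.2-fold) with an unadjusted p of 0.05 or more. It was described as reversed where the liver response had an unadjusted p under 0.05 and both other organs stood on the opposite side of 0, at least 1 of them at an unadjusted p under 0.05. By these definitions 263 probes (5.17% of those tested) were confined to the liver, 73 higher and 190 lower, and 17 (0.334%) were reversed, all of them lower in the liver. The remaining 55 probes met neither definition. Among the confined probes the median response of the lower group was -0.55 in liver, 0.06 in spleen and 0.03 in heart, and that of the higher group was 0.53, -0.04 and 0.02. The reversed probes had a median of -0.30 in liver, 0.19 in spleen and 0.17 in heart, so that both sides of the reversal were small. These medians follow from the definitions and describe the classes only. Because the pooled spread overstates the error in the heart, the condition on the heart p for a confined response was met more readily.

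**Figure D1:**
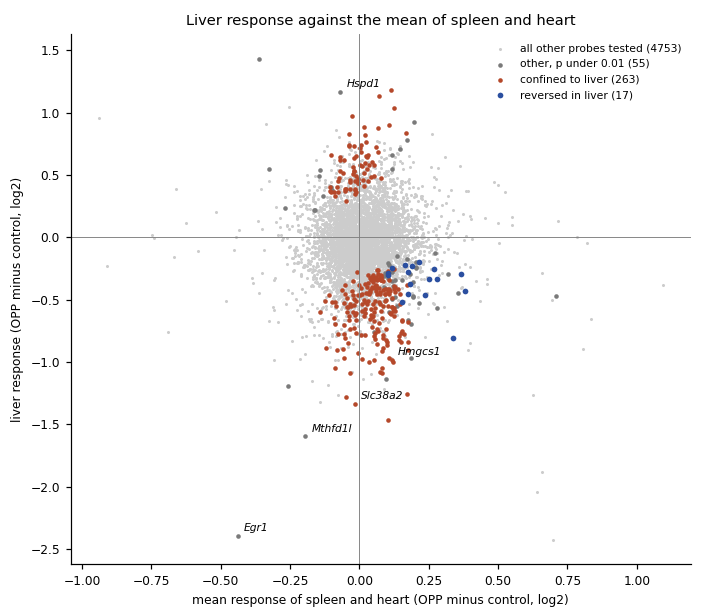
Liver response (OPP minus control, log2, vertical axis) against the mean response of spleen and heart (horizontal axis), 1 point per probe tested, coloured by class. The 263 confined probes lie above and below the centre, the 17 reversed probes lie to the lower right, and Egr1, not detected on the OPP livers, has the lowest measured liver response of the genes labelled.

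The gene with the smallest p was Slc38a2 (chr15:96687392-96699728 in GRCm38.p6), which encodes a sodium-coupled transporter of small neutral amino acids such as alanine and glutamine. Its log2 intensities were 10.44, 9.93, 10.18 and 10.62 in the control livers and 8.87, 8.85 and 9.16 in the OPP livers, so that every OPP liver lay below every control liver. In the spleen the controls stood at 8.89, 8.91, 8.78 and 8.48 and the OPP arrays at 8.72, 8.79, 8.71 and 8.79. In the heart they stood at 8.86, 8.93, 8.92 and 8.97 and at 9.0, 8.97, 9.10 and 8.52. The level of the OPP livers was close to that of the other organs, where the groups overlapped. The liver response was -1.33 (SE 0.15, n = 4 control and 3 OPP livers), a 2.52-fold lower level, and those of spleen and heart were -0.01 (95% interval -0.30 to 0.27) and -0.02 (-0.31 to 0.26). The interaction was -1.32 (SE 0.18, limma adjusted p = 0.00118), and 0.0436 was the adjusted p with organ weights. The two-sided exact permutation test of the same contrast, in which treatment labels were exchanged within each organ and whose null is no response in any organ, gave p = 0.0196. Slc38a2 passed an adjusted p of 0.05 under all 35 settings tried, with an interaction between -1.48 and -1.19.

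None of the 6 other amino acid transporter genes tested passed the adjustment, and Slc7a5 and Slc6a6 reached an unadjusted p under 0.01. Slc7a5, the light chain of the exchanger for large neutral amino acids, stood at 7.12, 6.58, 8.30 and 7.73 in the control livers and 5.63, 6.99 and 5.27 in the OPP livers. These groups overlapped, and the gene was detected on 3 control and 1 OPP liver arrays. Its interaction was -1.57 (SE 0.40, limma adjusted p = 0.0574). Slc6a6, the taurine transporter, had a response of -0.59 in liver, -0.02 in spleen and 0.04 in heart (interaction -0.60, SE 0.16, limma adjusted p = 0.0631). Over all 3943 genes at their brightest probe, 2404 were lower and 1539 higher in the interaction, 203 were lower at an unadjusted p under 0.01, and the median was -0.07. Of 7 amino acid transporter genes tested, 6 were lower and 1 higher, 3 lower at an unadjusted p under 0.01 and 1 at an adjusted p under 0.05, and the median was -0.27. The split was 3 higher to 4 lower with median scaling and also without OPP liver 3, and the median was -0.67 without OPP liver 1 and -0.17 without background correction. Slc3a2, which forms the heavy chain of the exchanger with Slc7a5, stood at 0.11, 0.07 and 0.21 in liver, spleen and heart. Csad, the decarboxylase that makes hypotaurine on the way to taurine, was called lower in the interaction (-1.24, SE 0.28, limma adjusted p = 0.0432), and its liver values were 9.90, 10.98, 11.22 and 11 in controls and 9.35, 9.94 and 9.19 with OPP. Control liver 1 lay just under the highest OPP liver, so that the groups overlapped, while the spleen and heart responses of Csad were -0.04 and -0.06.

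**Figure D2:**
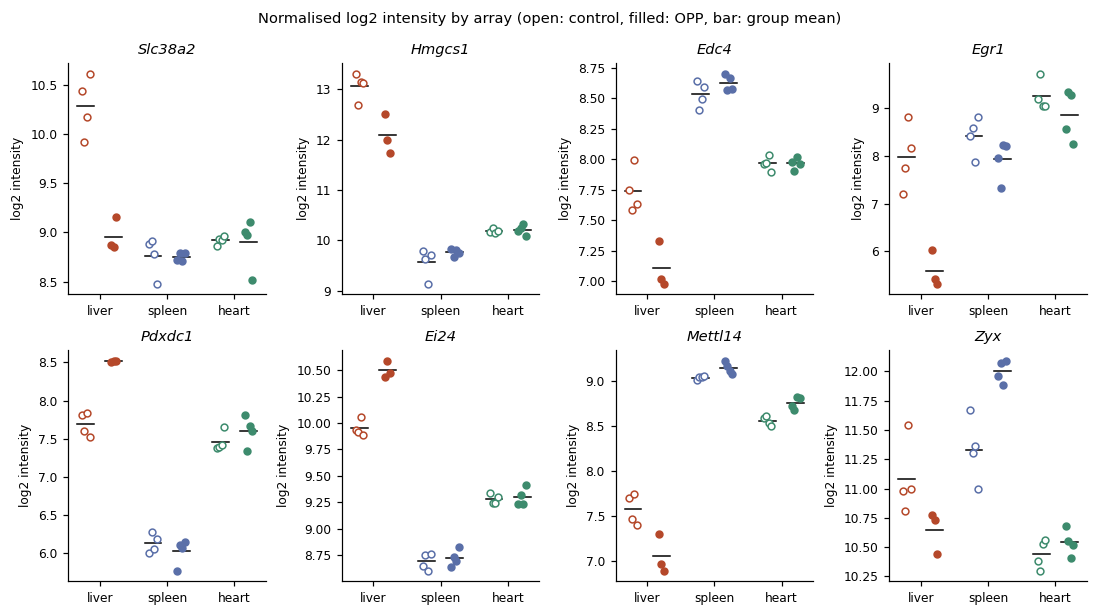
Normalised log2 intensity (vertical axis) of 8 genes on each array in liver, spleen and heart, with open circles for controls, filled circles for OPP and a bar for the group mean. Slc38a2, Hmgcs1, Edc4 and Egr1 are lower and Pdxdc1 and Ei24 higher in the OPP livers than in every control liver, whereas Mettl14 stands lower in the OPP livers but higher in the OPP spleens and hearts, and Zyx lower in the OPP livers but higher in the OPP spleens.

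Genes of cholesterol synthesis formed the gene group with the lowest median of the 20 examined. Of 8 tested, 7 were lower and 1 higher in the interaction, 5 were lower at an unadjusted p under 0.01 and 2 at an adjusted p under 0.05, against 203 lower and 49 higher at an unadjusted p under 0.01 among all 3943 genes. The median response of the 8 genes was -0.66 in liver, 0.03 in spleen and -0.08 in heart. Hmgcs1 (chr13:119690351-119708260), the cytosolic synthase that makes the precursor of mevalonate, stood at 13.31, 12.68, 13.15 and 13.12 in the control livers and 12.51, 12.00 and 11.74 in the OPP livers. Every OPP liver thus lay below every control liver. The liver response was -0.98 (SE 0.16), the spleen response 0.20 (95% interval -0.11 to 0.51) and the heart response 0.03 (-0.28 to 0.34), and the interaction was -1.10 (SE 0.19, limma adjusted p = 0.0143, and 0.0963 with organ weights). The level of this probe in control hearts, 10.15 to 10.24, and in control spleens, 9.15 to 9.79, was lower than in any liver. Nsdhl (chrX:72918521-72958528), a dehydrogenase that removes methyl groups from the sterol ring, was called too (interaction -0.65, SE 0.15, limma adjusted p = 0.0432). Its values were 10.99, 10.48, 10.67 and 11.07 in control livers and 10.31, 10.08 and 9.91 in OPP livers, with no overlap, while its spleen and heart responses were -0.03 and -0.09.

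The remaining members of this group did not pass the adjustment. Fdps, which makes farnesyl pyrophosphate, had responses of -0.69 in liver, 0.31 in spleen and 0.06 in heart (interaction -0.88, SE 0.22, limma adjusted p = 0.0539). Hsd17b7, a reductase of the late pathway, had -0.76, 0.29 and -0.19, and Msmo1, the oxidase that starts demethylation of the sterol ring, had -0.63, 0.04 and -0.11. Stard4, which carries cholesterol between membranes, stood at -0.40 in the liver, Pmvk, the second kinase acting on mevalonate, at -0.16, and Ebp, the sterol isomerase, at 0.05. The median interaction of the group lay between -0.72 and -0.54 across all settings examined, and it was -0.55 without control livers 3 and 4. The list was chosen with results of these arrays known, so that its direction in the liver is a description, and the values of spleen and heart are what the comparison sets beside it.

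The promoters of the cholesterol genes are shown because these members moved together and because sterol-responsive promoters are known to carry CCAAT boxes beside sterol response elements. The windows of 300 bases, most of which lie before the annotated start, were taken from RefSeq (GRCm38.p6) and are written 5′ to 3′ on the strand of the gene. A window was found for 25 of the 28 genes with a symbol among the first 30 called probes and for 6 of the 8 cholesterol genes tested. Motifs were searched on both strands, namely the box CCAAT, the E box written CACGTG, the cyclic AMP response element written TGACGTCA, the sterol response element in the form CACCCCAC, and an amino acid response element written as TGATGCAA, and every match is in capitals, ATTGG being CCAAT on the opposite strand. No motif overlapped another in the windows shown.
Hmgcs1 (chr13:119690101-119690400, plus strand): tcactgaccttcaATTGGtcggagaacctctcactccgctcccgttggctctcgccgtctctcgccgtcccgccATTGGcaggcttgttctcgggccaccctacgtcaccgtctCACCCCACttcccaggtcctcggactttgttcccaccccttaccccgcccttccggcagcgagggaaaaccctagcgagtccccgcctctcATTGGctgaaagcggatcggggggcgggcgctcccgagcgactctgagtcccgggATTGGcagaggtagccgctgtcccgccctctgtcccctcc
Nsdhl (chrX:72918271-72918570, plus strand): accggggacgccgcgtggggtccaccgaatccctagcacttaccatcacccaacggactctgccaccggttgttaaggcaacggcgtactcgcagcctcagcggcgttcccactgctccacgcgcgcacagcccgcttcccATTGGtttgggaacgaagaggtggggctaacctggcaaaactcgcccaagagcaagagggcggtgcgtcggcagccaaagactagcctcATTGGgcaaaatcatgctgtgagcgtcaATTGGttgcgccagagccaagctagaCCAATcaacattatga
Hsd17b7 (chr1:169969156-169969455, minus strand): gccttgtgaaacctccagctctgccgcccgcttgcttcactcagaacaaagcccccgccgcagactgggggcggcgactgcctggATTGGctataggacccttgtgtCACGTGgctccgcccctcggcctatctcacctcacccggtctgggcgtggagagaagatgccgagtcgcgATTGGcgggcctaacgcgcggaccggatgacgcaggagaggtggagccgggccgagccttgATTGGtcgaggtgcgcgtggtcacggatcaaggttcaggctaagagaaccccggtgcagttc
Msmo1 (chr8:64733529-64733828, minus strand): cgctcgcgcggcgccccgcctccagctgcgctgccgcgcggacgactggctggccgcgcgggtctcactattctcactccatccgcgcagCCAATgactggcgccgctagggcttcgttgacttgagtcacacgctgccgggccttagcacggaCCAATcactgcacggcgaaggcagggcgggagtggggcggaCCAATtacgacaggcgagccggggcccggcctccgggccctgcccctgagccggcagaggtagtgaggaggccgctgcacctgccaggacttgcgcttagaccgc
CCAAT was found at 4 places in the windows of Hmgcs1 and Nsdhl and at 3 places in those of Hsd17b7 and Msmo1. At least 1 place was found in all 6 cholesterol genes with a window, including Ebp and Pmvk, whose interactions were 0.11 and -0.12, and in 13 of those 25 genes. Of all 32851 windows searched, 37.4% held CCAAT at any place, 11.7% at 2 or more and 3.37% at 3 or more. These are shares of single windows, whereas a gene was counted if any of its windows held the box, so that they are not directly comparable. In Hspd1, Csad, Midn and Pmvk a window with CCAAT stood beside a window without it. CACCCCAC was found once in the window of Hmgcs1 and in 2.87% of all windows, and CACGTG once in that of Hsd17b7 and in 7.15% of all windows. The window of Slc38a2 is set beside them because this gene gave the smallest p.
Slc38a2 (chr15:96699679-96699978, minus strand): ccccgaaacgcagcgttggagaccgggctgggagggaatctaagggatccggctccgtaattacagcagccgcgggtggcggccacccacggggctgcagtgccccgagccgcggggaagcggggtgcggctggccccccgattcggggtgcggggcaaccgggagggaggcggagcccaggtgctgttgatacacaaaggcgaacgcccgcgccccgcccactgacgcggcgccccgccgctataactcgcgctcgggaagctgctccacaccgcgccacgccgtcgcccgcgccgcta
It held none of the 5 motifs, of which TGACGTCA was found in 1.79% and TGATGCAA in 0.895% of all windows. A match is a description of the letters and not a measured binding site.

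Several called genes act on RNA, and the share of such genes among all those tested was not counted. Mettl14, the partner of Mettl3 in the methyltransferase that marks adenosines of messenger RNA, had the second smallest p and was the first of the reversed genes. It stood at 7.70, 7.47, 7.74 and 7.40 in control livers and 7.30, 6.97 and 6.90 in OPP livers. In the spleen the controls stood at 9.01, 9.04, 9.04 and 9.05 and the OPP arrays at 9.22, 9.16, 9.11 and 9.07, and in the heart at 8.59, 8.61, 8.53 and 8.50 and at 8.72, 8.68, 8.82 and 8.80. The groups did not overlap in any organ, being lower with OPP in the liver and higher in spleen and heart, although the step in the spleen was small. The responses were -0.52 (SE 0.10), 0.11 (95% interval -0.08 to 0.30) and 0.20 (0.01 to 0.39), and the interaction was -0.68 (SE 0.12, limma adjusted p = 0.0143, and 0.0963 with organ weights). The exact permutation p (two-sided) was 5.83e-06, the smallest that the 171500 exchanges can give, and Mettl14 passed under 32 of 35 settings. The probe was detected on all 4 control but 2 of 3 OPP livers. Of 8 tested genes that write, erase or read this mark, 6 were lower and 2 higher in the interaction, against 2404 lower and 1539 higher of all 3943 genes. Past an unadjusted p of 0.01 was 1 of the lower, against 6.39% of all genes, and the median of the 8 was -0.20. It was -0.37 without OPP liver 1, -0.07 with median scaling and -0.06 with the authors' values, and the split was 5 lower to 3 higher in the latter pair. Mettl3 itself stood at -0.31, -0.19 and -0.09 in liver, spleen and heart (limma adjusted p = 0.733).

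Edc4, a scaffold of the complex that removes the cap of messenger RNA, was lower in all OPP livers (7.33, 7.01 and 6.98) than in any control liver (7.75, 7.58, 7.99 and 7.63). Its spleen and heart responses were 0.10 (95% interval -0.10 to 0.29) and 0.0011 (-0.20 to 0.20), and the interaction was -0.68 (SE 0.12, limma adjusted p = 0.0177), with 2 of 3 OPP livers detected. Of 16 tested genes of messenger RNA decay, 11 were lower and 5 higher, against 2404 lower and 1539 higher of all 3943 genes. At an unadjusted p under 0.01 were 2 of the lower, against 6.39% of all genes. These were Edc4 and Patl1, another scaffold of decapping (interaction -0.65, limma adjusted p = 0.112). The median of the messenger RNA decay genes was -0.09, against -0.07 over all 3943 genes at their brightest probe, and without OPP liver 2 it was -0.25. Over all 5088 probes tested, a measure that is not restricted to the brightest probe of a gene, the median was -0.055 with all arrays and -0.054 without OPP liver 2. Prpf3, a protein of the spliceosome, had an interaction of -0.92 (SE 0.21, limma adjusted p = 0.0432) and the RNA helicase gene Ddx55 of -0.64 (SE 0.14, limma adjusted p = 0.0344). Clk4, a kinase of splicing factors, went the other way with a liver response of 1.18 (interaction 1.07, SE 0.25, limma adjusted p = 0.0486). It was detected on 2 of 4 control livers, where it stood at 6.23, 6.95, 5.92 and 7.07, and on all 3 OPP livers, at 7.51, 7.63 and 8.04, without overlap. Clk4 thus entered the test through the OPP livers alone.

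Among the 9 probes higher in the liver, Ei24 had the smallest p. It encodes a membrane protein of the endoplasmic reticulum first known as a target of p53. Its values were 9.94, 9.92, 10.06 and 9.89 in the control livers and 10.44, 10.59 and 10.47 in the OPP livers. In spleen and heart the groups overlapped, with responses of 0.03 (95% interval -0.11 to 0.18) and 0.02 (-0.13 to 0.17). The liver response of 0.55 (SE 0.08) corresponded to a 1.46-fold higher level, and the interaction was 0.52 (SE 0.09, limma adjusted p = 0.0143, and 0.22 with organ weights). Pdxdc1, named for a pyridoxal-dependent decarboxylase domain, stood at 7.81, 7.61, 7.84 and 7.53 in control livers and at 8.51, 8.52 and 8.52 in OPP livers. The 3 OPP livers were almost alike, and the responses were 0.82 in the liver, -0.11 in the spleen (95% interval -0.34 to 0.13) and 0.15 in the heart (-0.09 to 0.38), with an interaction of 0.80 (SE 0.15, limma adjusted p = 0.0177).

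Ptp4a2, a prenylated protein tyrosine phosphatase, was called by 2 probes, with interactions of 0.81 (SE 0.17) and 0.50 (SE 0.12) and limma adjusted p values of 0.0344 and 0.0479. On the first probe the control livers stood at 7.47, 7.38, 7.42 and 6.89 and the OPP livers at 8.08, 8.29 and 8.12. The third probe of the gene, the brightest, did not follow them (12.13, 12.08, 12.21 and 11.88 against 12.14, 11.86 and 11.88, interaction -0.16, limma adjusted p = 0.513). The probes of Hspd1, the large subunit of the mitochondrial chaperonin, differed in size. The called probe stood at 7.03, 7.74, 7.59 and 7.06 in control livers and 7.88, 8.66 and 9.03 in OPP livers, with an interaction of 1.24 (SE 0.26, limma adjusted p = 0.0344). The brighter probe of Hspd1 stood at 11.13, 11.39, 10.60 and 11.54 against 11.25, 11.39 and 11.70, with overlap, and its interaction was 0.38 (SE 0.20, limma adjusted p = 0.31). The higher response of these genes thus depends on the probe read.

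Chaperones of the cytosol and mitochondria stood on the higher side as a group. Of 17 heat shock protein and chaperonin genes tested at their brightest probe, 16 were higher and 1 lower in the interaction, 3 of the higher at an unadjusted p under 0.01 and none at an adjusted p under 0.05, against 1539 of 3943 higher among all genes. Their median response was 0.29 in liver, -0.08 in spleen and -0.04 in heart, and the median interaction of 0.34 lay between 0.25 and 0.44 across all settings examined. Tcp1, a subunit of the cytosolic chaperonin, stood at 10.03, 10.23, 10.17 and 10.03 in control livers and 10.38, 10.62 and 10.50 in OPP livers (interaction 0.42, SE 0.10, limma adjusted p = 0.0534). Hspa9, the mitochondrial member of the Hsp70 family, stood at 10.62, 10.55, 10.68 and 10.78 against 10.82, 10.98 and 11.06 (interaction 0.34, SE 0.11, limma adjusted p = 0.103). Neither overlapped in the liver, and both overlapped in the other organs. Stip1, a co-chaperone that joins the Hsp70 and Hsp90 machines, had an interaction of 0.68 (SE 0.23, limma adjusted p = 0.133), and Hspa8, the constitutive cytosolic member, of -0.06 (SE 0.17). Of 9 chaperones and sensors of the endoplasmic reticulum, 8 were higher and 1 lower, Pdia3 and Pdia4, which form disulphide bonds, at an unadjusted p under 0.01 (interactions 0.49 and 0.53, limma adjusted p = 0.145 and 0.15), but the median was 0.06. Without spleen control 1 that median was -0.04.

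**Figure D3:**
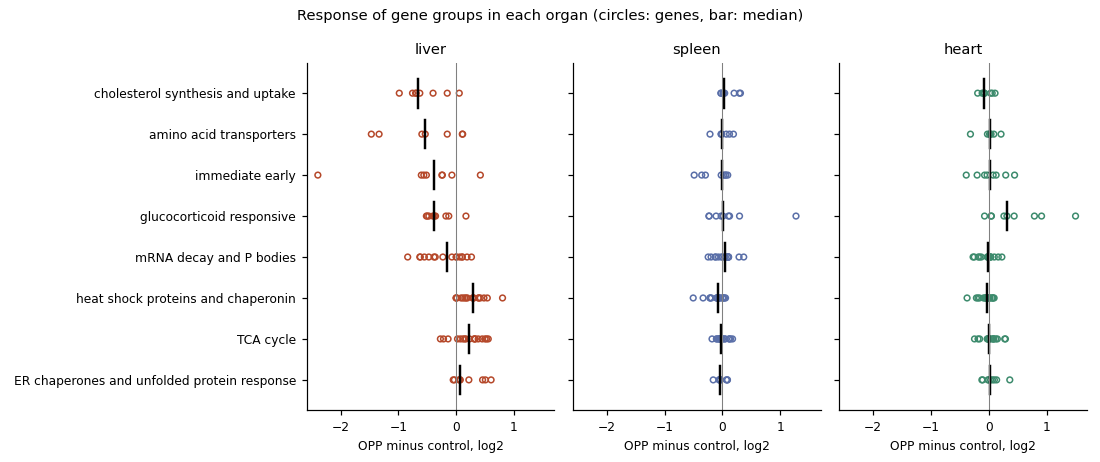
Response (OPP minus control, log2, horizontal axis) of the tested genes of 8 groups in each organ, with a circle per gene at its brightest probe and a bar for the median. In the liver the medians run from -0.66 for cholesterol synthesis to 0.29 for heat shock proteins and chaperonin, and in the spleen and heart the medians of these 2 groups lie between -0.08 and 0.03.

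Egr1, an immediate early transcription factor, stood at 7.20, 7.75, 8.81 and 8.18 in control livers and 6.03, 5.42 and 5.32 in OPP livers, where it was not detected on any array. It entered the test through the control livers alone, and its liver level was at least 2.31-fold lower, a bound taken as the control mean over the dimmest reliably detected signal of each OPP array or the signal of the probe itself, whichever was higher. The measured liver response was -2.39, which takes the undetected signals as they stand, and spleen and heart stood at -0.49 (95% interval -1.13 to 0.15) and -0.39 (-1.03 to 0.25), on the same side of 0. The interaction computed from them was -1.95 (SE 0.40, limma adjusted p = 0.0344, range 0.0069 to 0.226 over 35 settings). Of 8 immediate early genes tested, 7 were lower and 1 higher, against 2404 lower and 1539 higher of all 3943 genes. At an unadjusted p under 0.01 were 2 of the lower, Egr1 and the zinc finger gene Klf6, against 203 lower of all genes. Over all genes the median was -0.07, and over the immediate early genes it was -0.40. That median was -0.14 without control livers 3 and 4, which held the highest levels of Egr1, of Klf6 (9.90 and 9.45 against 8.77 and 9.01) and of the neutrophil markers, and the part of these arrays in the result was not tested.

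Chd8, a chromatin remodelling helicase, stood at 8.73, 8.63, 8.54 and 8.67 in control livers and 8.28, 7.91 and 8.12 in OPP livers, with responses of -0.0031 (95% interval -0.18 to 0.17) in spleen and 0.02 (-0.16 to 0.20) in heart (interaction -0.55, SE 0.11, limma adjusted p = 0.0344). Ehmt1, a methyltransferase of histone H3, stood at 8.65, 8.63, 8.42 and 8.63 against 8.22, 7.59 and 8.16 (interaction -0.72, SE 0.16, limma adjusted p = 0.035). Gatad2b, a subunit of a deacetylase complex, had an interaction of -0.68 (SE 0.15, limma adjusted p = 0.0432), and the zinc finger gene Zfp64 of -0.69 (SE 0.15, limma adjusted p = 0.0344). In the liver none of these 4 genes had an OPP value above a control value. The zinc finger gene Zfp64 also showed every OPP spleen (6.35 to 6.47) above every control spleen (6.08 to 6.31), at a spleen response of 0.18 (95% interval -0.06 to 0.41). Midn, a nuclear adaptor of the proteasome, had an interaction of -0.56 (SE 0.13, limma adjusted p = 0.0465).

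Mthfd1l, the mitochondrial ligase that releases formate from folate, stood at 7.51, 6.97, 8.05 and 8.31 in control livers and was not detected in the OPP livers, at 6.13, 6.34 and 5.87. Like Egr1 it entered the test through the control livers alone. So did every called lower probe that was not detected on all 3 OPP livers. Among these were Mettl14, Edc4, Prpf3, Ddx55, Gatad2b, Zfp64, Abca7, Kif3b and Tubb6, each detected on 2 OPP livers. Their responses also take the undetected signal as it stands. Of the 40 called lower probes, 20 were detected on all 3 OPP livers, 16 on 2, 2 on 1 and 2 on none. The liver level of Mthfd1l was at least 1.91-fold lower, and the interaction computed from the signals as they stand was -1.40 (SE 0.29, limma adjusted p = 0.0344), with responses of -0.08 in spleen and -0.31 in heart. Abca7, a transporter of phospholipids, stood at 7.88, 7.34, 8.73 and 8.0 against 6.79, 7.14 and 6.76 in the liver, with no overlap (interaction -1.17, SE 0.25, limma adjusted p = 0.0344). Kif3b, a motor subunit of kinesin, had a liver response of -0.82, the tubulin gene Tubb6 of -1.05, and Pdlim1, which links actin to signalling proteins, of -0.50, and their spleen and heart responses lay between -0.10 and 0.16. Gtpbp2, which acts on stalled ribosomes, was at 9.71, 9.49, 9.63 and 9.36 against 9.25, 9.10 and 9.05 in the liver (interaction -0.52, SE 0.11, limma adjusted p = 0.0344). The calls ranked below the 30th, named here after their values were seen, had adjusted p values of 0.0479 to 0.0491 and included Plin3, a lipid droplet coat protein (liver -1.26, spleen 0.14, heart 0.20), and the Golgi genes Golga2 (-0.35, 0.06, 0.10), Acbd3 (-0.51, 0.04, 0.02) and Vamp4 (-0.77, 0.08, 0.03).

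Ankzf1 and Zfand2b, which lie near each other on chromosome 1 (chr1:75192160-75199387 and chr1:75168646-75171626), were both called. Ankzf1 frees incomplete chains from stalled ribosomes, and Zfand2b binds the proteasome. Ankzf1 stood at 9.27, 9.15, 9.09 and 9.02 in control livers and 8.81, 8.48 and 8.78 in OPP livers, and Zfand2b at 9.35, 9.02, 9.29 and 9.15 against 8.82, 8.64 and 8.78. Neither overlapped in the liver, and the interactions were -0.57 (SE 0.11) and -0.60 (SE 0.13), both with a limma adjusted p = 0.0344. The other probe of each gene did not follow, with interactions of -0.12 (SE 0.18) for Ankzf1 and -0.18 (SE 0.19) for Zfand2b and overlapping liver groups (8.15, 8.04, 8.24 and 7.83 against 8.03, 7.6 and 8.33 for Ankzf1). As for Ptp4a2 and Hspd1, the call belongs to the probe and not to every probe of the gene.

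**Figure D4:**
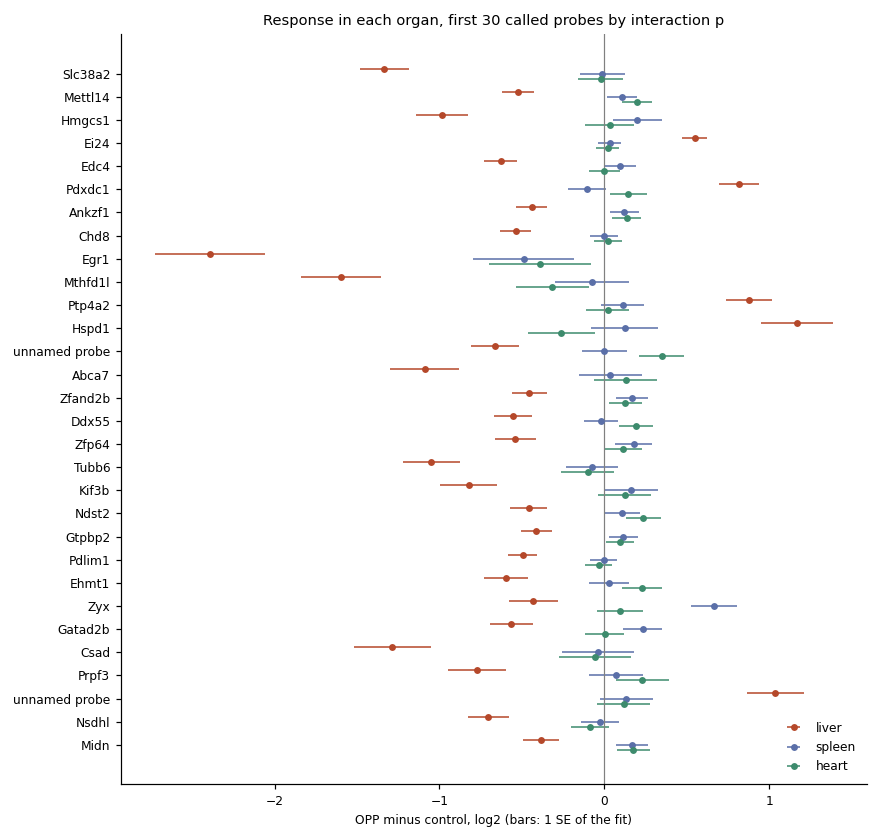
Response (OPP minus control, log2, horizontal axis) in liver, spleen and heart of the 30 called probes with the smallest interaction p, with bars of 1 SE from the fit. The liver points lie well to the left or right of 0, from -2.39 for Egr1, not detected on the OPP livers, to 1.17 for Hspd1, while the spleen point of Zyx, at 0.67, is the farthest from 0 of the other organs on the higher side.

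In Zyx, a protein of focal adhesions that shuttles to the nucleus, the opposite side was the spleen, and the call passed under 15 of 35 settings. In the spleen every OPP array (11.96, 12.07, 11.88 and 12.09) lay above every control (11.67, 11.30, 11.36 and 11), whereas in the liver every OPP array (10.77, 10.73 and 10.44) lay below every control (10.98, 10.81, 11.54 and 11). The responses were 0.67 (95% interval 0.38 to 0.95) in the spleen, -0.43 (-0.74 to -0.12) in the liver and 0.10 (-0.19 to 0.38) in the heart, and the interaction was -0.81 (SE 0.18, limma adjusted p = 0.035, and 0.226 with organ weights). The kinase gene Fes followed the same order, at 8.15, 7.89, 9.28 and 8.33 against 7.87, 7.66 and 7.30 in the liver and 8.16, 8.07, 8.39 and 7.77 against 8.67, 9.23, 8.43 and 8.53 in the spleen. Neither organ overlapped for Fes, but its interaction of -1.14 (SE 0.29) missed the adjustment (limma adjusted p = 0.0534). Neutrophil and platelet markers are set beside these genes, and their order was not the same in every liver. The neutrophil sum was 12.74 and 14.48 (log2) in OPP livers 1 and 2, above 11.56 and 10.66 in control livers 1 and 2. Zyx and Fes were lower in those OPP livers than in those control livers. The summed level of 14 neutrophil markers, all detected in both spleen groups, was 16.57 to 17.27 (log2) in the OPP spleens and 15.15 to 16.78 in the control spleens, and the arrays with the highest Fes, control liver 3 and OPP spleen 2, had the highest neutrophil sums of their organs (16.15 and 17.27). Of the 4 neutrophil genes in the test, none was called, and Ltf had a response of -2.04 in liver and 1.07 in spleen (interaction -2.68, limma adjusted p = 0.222) and S100a8 of -2.43 and 0.55 (interaction -3.13, limma adjusted p = 0.26). The summed level of 7 platelet markers was 13.26 to 13.75 in the OPP spleens, above the 11.72 to 13.23 of the control spleens, and 8.52 to 8.78 in the OPP livers against 8.43 to 9.56 in the control livers, with 1 of the 7 detected on 3 or more arrays of each liver group. That gene, Vwf, which encodes von Willebrand factor, had responses of -0.47 in liver and 1.41 in spleen (interaction -1.18, limma adjusted p = 0.088). The part of neutrophils and platelets in the responses of Zyx and Fes was not tested. In Ndst2, which sulphates heparan chains, and Tfdp2, the partner of E2F factors, the opposite side was the heart. Ndst2 had -0.46 in the liver, 0.11 in spleen and 0.24 (95% interval 0.02 to 0.46) in heart (interaction -0.63, SE 0.14, limma adjusted p = 0.0344), and Tfdp2 had -0.46, 0.10 and 0.37 (0.10 to 0.64) (interaction -0.70, SE 0.17, limma adjusted p = 0.0486). Of 15 tested genes of the cytoskeleton and focal adhesion, the list that holds Zyx, 8 were higher and 7 lower in the interaction, and Zyx alone passed an unadjusted p of 0.01.

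The other gene groups held few or no genes at an unadjusted p under 0.01, and their shares of higher genes lay on either side of that of all genes, 1539 of 3943 (39%). Of 9 genes responsive to glucocorticoid, all were lower in the interaction and none reached an unadjusted p of 0.01, with medians of -0.38 in liver, 0.01 in spleen and 0.32 in heart. The median interaction of -0.46 turned to 0.08 without control livers 3 and 4. Of 17 genes of the tricarboxylic acid cycle, 14 were higher and 3 lower, none past an unadjusted p of 0.01, and the median of 0.27 fell to 0.03 without those 2 control livers. Of 49 respiratory chain and ATP synthase genes, 37 were higher and 12 lower, none past an unadjusted p of 0.01, with a median of 0.08 that became -0.06 without them. For 14 genes of mitochondrial beta oxidation and targets of the receptor PPAR alpha, 9 were higher and 5 lower, none past an unadjusted p of 0.01, at a median of 0.06, and of -0.0049 without control livers 3 and 4. In this group Pdk4, the kinase that shuts off pyruvate dehydrogenase, differed in the heart instead, at 12.87, 13.19, 12.75 and 12.42 in controls and 14.09, 13.80, 14.34 and 14.27 with OPP, while its liver values overlapped (interaction -0.78, SE 0.47, limma adjusted p = 0.39). Of 49 cytosolic ribosomal protein genes, 32 were higher and 17 lower at a median of 0.04, 2 of the higher past an unadjusted p of 0.01, but the median was -0.04 without OPP liver 2, with 22 higher and 27 lower, and 0.14 without OPP liver 3. The 27 proteasome subunits split 13 to 14.

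Overlap, level and detection are given for the called probes beside all probes tested as a description, since the call rests on the same values and detection had chosen the probes tested. In the livers, the OPP and control groups did not overlap for 46 of the 49 called probes (93.9%), against 604 of 5088 (11.9%), which follows in part from the call itself. In the spleen they did not overlap for 6.12% of the called and 2.95% of all probes, and in the heart for 10.2% and 6.88%. The liver was the organ of the highest control level for 23 of the 49 (46.9%), against 38.5% of all probes, and spleen and heart were so for 13 each (26.5%). Of the 40 lower probes, 39 were detected on all 4 control livers, but 20 (50%) were not detected on OPP liver 3, the array of high background, against 949 of 5088 probes (18.7%) tested, and 4 were missed on OPP liver 1 or 2. The 9 higher probes were detected on all 3 OPP livers. A probe could enter the test through either liver group, so that a lower probe may be dim in the OPP livers and a higher one in the controls, and these shares follow in large part from the filter and the direction of the call. The 2 ways in were not equal, since entry asked for 3 of the 4 control livers or for all 3 OPP livers, OPP liver 3 among them. Without the filter on dim probes, 15 adjusted calls were higher and 10 lower. Without OPP liver 3 the number of adjusted calls was 15, 9 of them among the 49, and Slc38a2, Mettl14, Hmgcs1, Ei24, Edc4, Pdxdc1 and Ankzf1 passed with interactions of -1.41, -0.60, -0.93, 0.53, -0.62, 0.80 and -0.61.

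**Figure D5:**
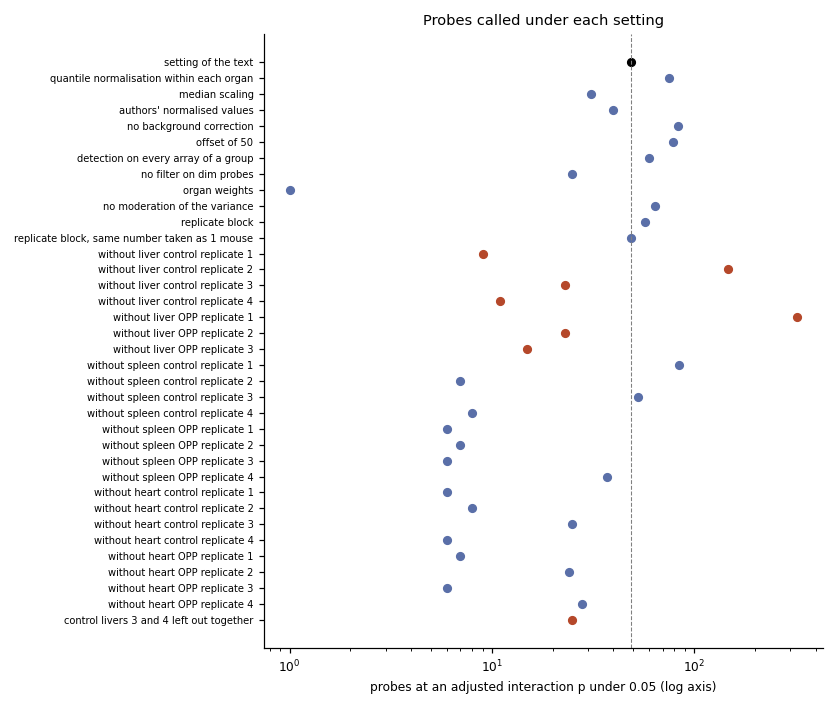
Number of probes at an adjusted interaction p under 0.05 (horizontal log axis) under each setting, with the setting of the text in black and its 49 probes as a dashed line, settings that leave out liver arrays in red and the others in blue. The counts range from 1 with organ weights to 325 without OPP liver 1.

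The number of calls moved with single arrays, as the plot of calls under each setting shows. It rose to 325 without OPP liver 1 and to 147 without control liver 2, and fell to 9 without control liver 1 and to 6 without any of 5 spleen or heart arrays. Of the 49 probes, 48 were called again in each of the first 2 cases. Fewer were called again under other processing, 25 of the 49 with median scaling, where 14 calls were higher and 17 lower, and 7 without the filter on dim probes. Hmgcs1 and Ei24 passed an adjusted p of 0.05 under 34 of 35 settings, Pdxdc1 under 33 of 34 and Edc4 under 32 of 35, and in each of them organ weights gave the largest adjusted p (0.0963 to 0.226). The other 24 of the first 30 probes passed under 14 to 22 settings, and none of the 30 changed direction under any setting. Some called probes did not reach 0.05 in the two-sided exact permutation test, whose null is no response in any organ. Its p was 0.0749 for Egr1 and for Clk4, 0.0699 for Csad, 0.0646 for Mthfd1l, 0.0626 for Nsdhl and 0.0641 for a called probe without a symbol.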

How the data were processed

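The RNA of 23 organs was measured on Illumina MouseRef-8 Version 1 arrays, and the groups were taken from the submitters' labels. The authors used BeadStudio (1.5.1.3 per the submitters' processing notes), removed outlying arrays and deposited a non-normalised intensity and a detection p-value per probe and array, besides rank invariant normalised intensities. The authors' normalised intensities were used as an alternative only. No pair of arrays held identical values.

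The deposited intensities of the 23982 probes with a value on every array (66 had none in spleen and heart) were background corrected with nec from the detection p-values, an offset of 16 was added, and the values were quantile normalised over all 23 arrays and brought to log2. The 5088 probes tested had a detection p under 0.01 on 3 or more arrays of a group in each organ. Group means were fitted with limma 3.58.1 in R 4.3.3 with a trended variance. The contrast was the OPP response of the liver minus the mean of those of spleen and heart, adjusted by Benjamini-Hochberg over all 5088 probes. Intervals are 95% intervals of this fit. Permutation tests were exact, two-sided and within organ. The fit was tested on simulated data, where it called too many probes when the spread differed between organs, as it does here.

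The genes named were the first 30 probes by p past the adjustment, the other tested probes of these genes, the 2 genes of smallest p in each of 20 pathway lists, and up to 6 probes of smallest p per direction of the confined and the reversed class. Other list members, markers and calls below the 30th were chosen for naming with their values in view. The members, lists and tests were chosen with earlier results of these data known. Lists were read at the brightest tested probe of a gene and not tested. Gene symbols came from the platform annotation, and coordinates and promoters from RefSeq (GRCm38.p6). The precision is set by the number of arrays. Which arrays share a mouse is not given in the labels, and p-values measure the spread between these samples. Alternatives were the normalisation, the background correction, its offset, the filter on dim probes, the variance model, the pairing, the authors' values and leaving out arrays.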

Additional observations from a re-analysis of the deposited data

Results flagged for a closer look

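The liver response differed from the mean of the other organs at an adjusted p under 0.05 in limma for 49 probes, a difference tested by the interaction itself and described above.

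Single arrays that stood far from the other 3 of their group were looked for in 160 groups of 4 arrays, over the first 30 called probes, the background intensity and the number of detected probes, and 13 were found by Dixon's ratio at its 95% critical value. Chance flags about 1 in 20 groups, and the liver groups treated with OPP, of 3 arrays, were not examined. Of the 13, 3 lay in control livers. The Ptp4a2 probe stood at 6.89 (log2) in control liver 4, against 7.38 to 7.47 in the other controls, Ehmt1 at 8.42 in control liver 3, against 8.63 to 8.65, and Ndst2 at 8.50 in control liver 2, against 8.65 to 8.67. Ndst2 was also apart in spleen control 3 (8.77 against 8.28 to 8.32), spleen OPP 4 (8.36 against 8.57 to 8.61) and heart control 4 (6.80 against 6.88 to 6.89). In the spleen, Hspd1 stood at 6.15 in OPP 2 (others 6.26 to 6.28) and Midn at 10.19 in OPP 3 (others 10.36 to 10.39). In the heart, Pdxdc1 stood at 7.65 in control 4 (others 7.38 to 7.42), Ptp4a2 at 7.94 in OPP 2 (others 7.99 to 8.01), Kif3b at 6.51 in OPP 2 (others 6.87 to 6.94) and Nsdhl at 8.21 in OPP 1 (others 8.33 to 8.36). Heart control 2 had 9785 detected probes, against 9022 to 9101 on the other control hearts.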

How the results depend on the processing

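The count of 49 adjusted calls became 75 with quantile normalisation within each organ, 31 with median scaling, 83 without background correction, 79 with an offset of 50, 25 without the filter on dim probes, 1 with organ weights and 25 without control livers 3 and 4, while it was 40 with the authors' values, of which 28 were shared. Leaving out single arrays gave 6 to 325 adjusted calls, and only the omission of spleen control 3 or spleen OPP 4 left the count within 1.5 times. The 335 probes at an unadjusted p under 0.01 became 857 without the filter and 155 with organ weights, and 279 to 558 without single arrays. The 263 probes whose response is confined to liver became 647 and 96 in the same settings (220 to 435 without single arrays), and the 17 reversed probes became 41 without the filter (12 to 35 without single arrays). The causes of these changes were not tested. The mean organ weight was 0.473 for liver, 1.08 for spleen and 1.79 for heart arrays, and 23982 probes were tested without the filter. Same-numbered arrays deviated together in 10 of 33 pairs (correlation over 0.1). The pairs included control and OPP arrays of the same organ, which come from different mice, so that this count does not settle whether the numbers pair the organs. The highest correlations, 0.491 and 0.554, were those of control and OPP hearts 2 and 4. With the replicate block the number of adjusted calls was 57, of which 40 were among the 49. It was 49 with the same number of a treatment group taken as 1 mouse, at a consensus correlation of 0.000802.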
